A study of Homo sapiens with 6 samples.

Results

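Transcript levels of 6 genes of the hemidesmosome were followed by RNA-seq in SUM159, an established human cell line of triple-negative breast cancer, over 6 libraries. The genes, chosen by symbol, were ITGB4, ITGA6, COL17A1, DST, PLEC and CD151, which are 6 of the 58336 genes in the count table. Each matched 1 Ensembl identifier, and all 6 passed the filter on low counts. Cells labelled ITGB4 high and ITGB4 low were both SUM159. The libraries held ITGB4-high cells from culture (n = 1), ITGB4-low clones 1 and 3 from culture (control, n = 2), the same clones 1 and 3 recovered from mouse lungs that also received LM2 cells (n = 2), and clone 1 recovered from lungs after bleomycin was given through the trachea (n = 1). LM2 cells derive from the human breast cancer line MDA-MB-231 and spread to lung, and bleomycin causes lung injury with inflammation. Recovered cells were dissociated from lung, kept overnight in a dish and sorted for tdTomato, whereas control and ITGB4-high cells came straight from culture. Passage through the lung therefore goes with the trigger, and cells from lungs without a trigger were not analysed here. Each ITGB4-low library is 1 clone in 1 condition, and no label says whether animals were pooled. In the protocol text, co-injection with LM2 is described for clone 1, and clone 3 for the other LM2 library rests on its title.

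A hemidesmosome fixes an epithelial cell to the basement membrane. The integrin of alpha-6 (ITGA6) and beta-4 (ITGB4) chains binds laminin-332 outside the cell, and the long tail of beta-4 holds plectin (PLEC) and the epithelial form of dystonin (DST, also called BP230), which reach the keratin filaments. The transmembrane collagen COL17A1 (BP180) and the tetraspanin CD151 complete the complex. ITGB4 pairs with ITGA6 alone, while ITGA6 can also pair with ITGB1. In breast epithelium ITGB4, ITGA6 and COL17A1 mark the basal layer, and in carcinoma ITGB4 is found in cells that hold epithelial and mesenchymal features together.

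RefSeq promoter windows (GRCh38.p14) were at hand for ITGA6, COL17A1 and DST. They are shown because ITGA6 and COL17A1 stood higher in 4 libraries than in both controls, whereas DST hardly differed. Each run reads 5′ to 3′ on the strand of its gene and ends at or before the first annotated exon. ITGA6, at the first of its 2 listed starts, is at chr2:172427086-172427335, plus strand, COL17A1 at chr10:104085958-104086130, minus strand, and DST, at the first of its 3 listed starts, at chr6:56954831-56955080, minus strand. Capitals mark matches on either strand to CAGGTG, the E-box that ZEB1 and the SNAI factors can bind, or to GGGCGG, the GC box of the SP and KLF factors.
ITGA6: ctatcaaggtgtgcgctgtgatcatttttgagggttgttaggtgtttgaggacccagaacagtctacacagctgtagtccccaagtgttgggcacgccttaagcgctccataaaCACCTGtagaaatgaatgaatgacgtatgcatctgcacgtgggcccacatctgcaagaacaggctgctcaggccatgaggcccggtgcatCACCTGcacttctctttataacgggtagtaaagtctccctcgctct
COL17A1: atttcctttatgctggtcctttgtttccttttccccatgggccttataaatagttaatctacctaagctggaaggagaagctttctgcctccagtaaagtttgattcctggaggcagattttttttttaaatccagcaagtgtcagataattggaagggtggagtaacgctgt
DST: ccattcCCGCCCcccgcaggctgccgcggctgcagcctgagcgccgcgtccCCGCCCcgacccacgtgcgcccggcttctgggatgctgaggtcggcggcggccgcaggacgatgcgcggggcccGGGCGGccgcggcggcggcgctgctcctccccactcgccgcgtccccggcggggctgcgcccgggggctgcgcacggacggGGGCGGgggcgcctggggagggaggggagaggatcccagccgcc

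In the 250 bases before its first listed start, ITGA6 held 2 matches to CAGGTG, read as its reverse complement, at 136 and 46 bases before it. The window of its second start, which like the first has a GENCODE exon beginning within 100 bases, held 0 of these and 3 matches to GGGCGG. Among 35116 promoter windows of that length, 17.5% held at least 1 match to CAGGTG. DST held 4 matches to GGGCGG at its first listed start, within 100 bases of which 0 GENCODE exons of the gene begin. Its other listed starts, where exons of 4 and 3 GENCODE transcripts begin that near, held 0 matches. Whether these are the first exons of their transcripts was not tested. That motif was present in 42.6% of the windows. The AP-1 motif TGANTCA, found in 6.6%, was in none of the windows of these 3 genes, and the COL17A1 window held none of the 3 motifs. The matches in the printed runs do not overlap one another, and a match or its absence describes only these letters.

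The libraries held between 13607953 and 22222121 counts, so 3 counts, the limit that a count of 0 allows, correspond to 0.135 to 0.22 CPM (counts scaled to a common library total). TMM factors between 0.947 and 1.032 were applied to the CPM below. The LM2 clones lay further apart than the control clones (chi-square over all genes, divided by its degrees of freedom, 80.1 against 8.67). Of the 5 markers listed for a mesenchymal basal-like line (VIM, FN1, CDH2, CD44 and AXL), all 5 were above 3 counts in every library. The summed level of that list was lower in ITGB4-high cells (6130 CPM) and lung cells (8120 to 11100 CPM) than in controls (14100 and 14500 CPM). FN1 was the largest part of it in controls (9636 and 9699 CPM) and in lung cells (4670 to 6995 CPM). In ITGB4-high cells FN1 was at 1943 CPM, below VIM. CDH2 (247.5 and 216.8 CPM in control clones 1 and 3) was also lower elsewhere, at 68.02 to 151.6 CPM. So was AXL, at 479.2 and 492.8 CPM in control clones 1 and 3 and 92.84 to 347.7 CPM elsewhere. VIM in ITGB4-high cells (3561 CPM) lay between the controls, and CD44 was above both controls in LM2 clone 1 (959 CPM) and after bleomycin (728 CPM). Of the 5 leukocyte markers, at most 3 exceeded 3 counts in any library. Their sum was 4.81 CPM in the bleomycin library and 3.1 CPM in LM2 clone 1. It was 0.895 CPM in LM2 clone 3, 1.02 CPM in ITGB4-high cells, and 1.59 and 0.735 CPM in control clones 1 and 3. PTPRC had 42 reads after bleomycin and 30 in LM2 clone 1, against at most 4 elsewhere. Reads were counted on human genes, so carry-over of mouse cells was not tested. LM2 cells are human, so reads of any that were carried over would count on the same genes. Their carry-over into the LM2 libraries was not tested either. Fibroblast markers, which SUM159 expresses in part, summed to 85.7 and 86.7 CPM in controls. They summed to 196 in ITGB4-high cells and 455 to 753 in lung cells. The markers did not move together. COL1A1 was highest in LM2 clone 3 (712 CPM) and PDGFRA in LM2 clone 1 (449 CPM). In LM2 clone 3, PDGFRA (27.55 CPM) lay below both controls (32.55 and 35.16 CPM). DCN was at 16.8 and 21.7 CPM in controls, 14.6 and 12.8 CPM in LM2 clones 1 and 3, and 39.2 CPM after bleomycin. COL1A2 was at most 3.95 CPM. The part of these markers in the results was not tested.

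The genes lie apart in the genome. On GRCh38 (the hg38 assembly), ITGB4 (ENSG00000132470) spans 75721328 to 75757818 of chromosome 17, plus strand, and ITGA6 (ENSG00000091409) 172427354 to 172506282 of chromosome 2, plus strand. COL17A1 (ENSG00000065618) spans 104031286 to 104085957 of chromosome 10, minus strand, and DST (ENSG00000151914) 56457987 to 56954628 of chromosome 6, minus strand. PLEC (ENSG00000178209) spans 143915147 to 143976734 of chromosome 8, minus strand, and CD151 (ENSG00000177697) 832843 to 839831 of chromosome 11, plus strand. Counts are per gene, so the isoforms of DST, PLEC and ITGA6 were not separated.

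**Figure D1:**
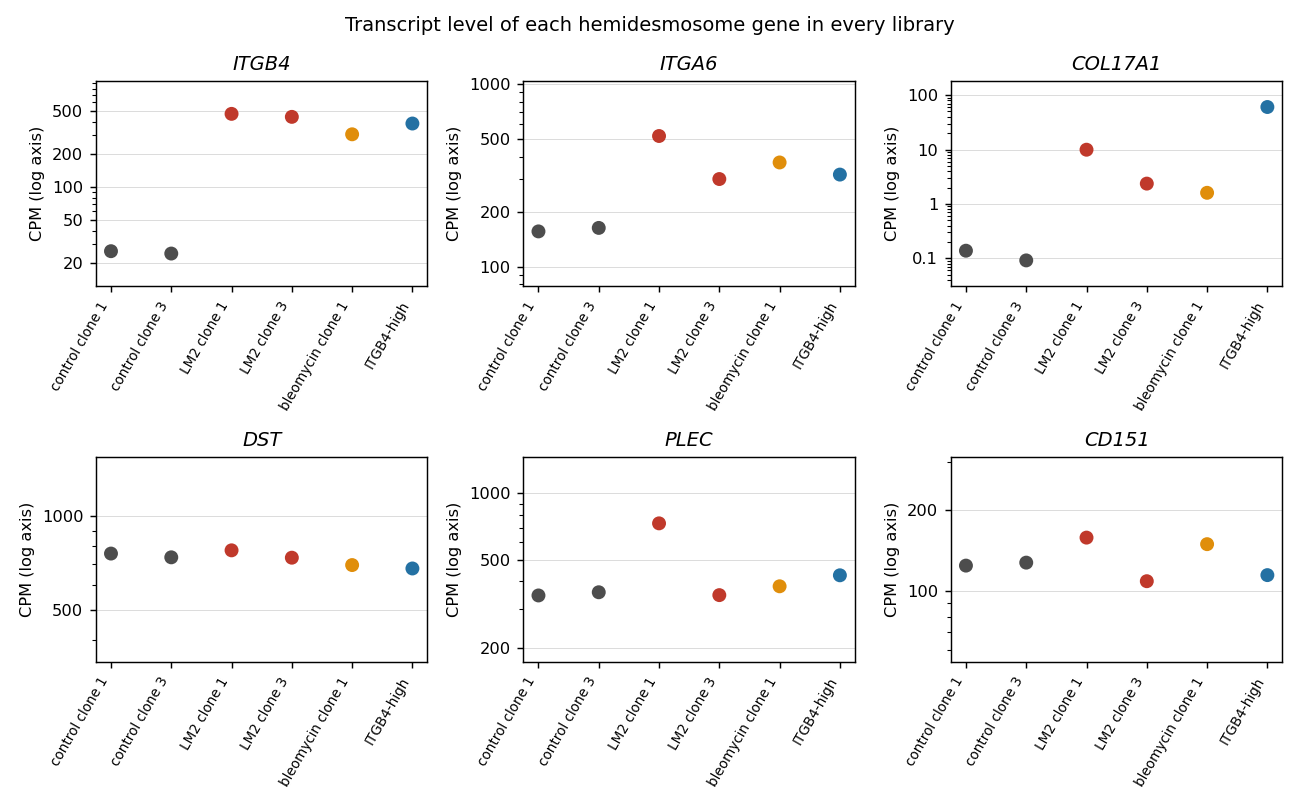
Level of each of the 6 genes in CPM (log axis, a separate range in each panel), 1 point per library: cultured ITGB4-low controls in grey, LM2 lung cells in red, bleomycin lung cells in orange and cultured ITGB4-high cells in blue. ITGB4, ITGA6 and COL17A1 are higher in all 4 coloured libraries than in both controls, DST stays between 679 and 777 CPM, and PLEC stands out in LM2 clone 1 alone.

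ITGB4 was low in cultured ITGB4-low cells, at 25.9 CPM (374 reads) in clone 1 and 24.6 CPM (536 reads) in clone 3. It reached 384 CPM in ITGB4-high cells, 471 CPM in LM2 clone 1, 442 CPM in LM2 clone 3 and 306 CPM in bleomycin clone 1. No control overlapped any other library. The labels are defined by this gene, so its difference between the cultured states checks them (log2 fold change 3.92, SE 0.15, adjusted p = 0.0148, edgeR's quasi-likelihood test with Benjamini-Hochberg adjustment). Lung-recovered cells carry the label ITGB4 low, yet their ITGB4 rose 16.1-fold over control, with a log2 change of 4.01 (SE 0.25, edgeR adjusted p = 0.0116). The rise was 18.1-fold in LM2 lung cells (4.17, adjusted p = 0.0122, edgeR) and 12.1-fold in the bleomycin library, for which no LM2 cells are named (3.60, adjusted p = 0.0323, edgeR). In these bulk samples, more ITGB4-expressing cells and more RNA per cell cannot be told apart.

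Set directly against ITGB4-high cells, lung-recovered cells had an ITGB4 log2 difference of 0.08, with a 95% interval of -0.56 to 0.72 (adjusted p = 0.894, edgeR). The 3 lung values lay on both sides of the ITGB4-high value. Between the triggers, bleomycin cells were below both LM2 libraries by 0.58 on the log2 scale, a difference that did not pass (log2 -0.58, 95% interval -0.99 to -0.16, adjusted p = 0.926, edgeR). Only 1 of the 6 genes, ITGB4, passed in each comparison with control. Over all 15673 genes tested, the share called was 0.0893% for ITGB4-high cells (0.0574% higher), 0.0319% for LM2 lung cells and 0.0255% for bleomycin lung cells (every call higher in both), and 0.498% for all lung cells together (0.268% higher and 0.23% lower). With control clone 1 or clone 3 left out, ITGB4 kept a log2 change between 3.56 and 4.23 but passed nowhere. Its adjusted p was then 0.33 and 0.371 for ITGB4-high cells, 0.429 and 0.566 for LM2, 0.611 and 0.629 for bleomycin, and 0.242 and 0.282 for all lung cells (edgeR), and 0 of all genes passed in those fits.

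ITGA6, the only partner of ITGB4, was already expressed in the controls, at 156 CPM (2248 reads) in clone 1 and 163 CPM (3539 reads) in clone 3. In ITGB4-high cells ITGA6 had 319 CPM, in LM2 clone 1 it had 518 CPM, in LM2 clone 3 301 CPM and after bleomycin 371 CPM. Both controls lay below every other library, and LM2 clone 1 was the highest. The log2 difference from control was 1.32 for all lung cells (SE 0.25, 95% interval 0.71 to 1.92, adjusted p = 0.0808, edgeR) and 1.00 for ITGB4-high cells (SE 0.33, adjusted p = 0.166, edgeR), so neither passed. For LM2 lung cells it was 1.36 (adjusted p = 0.212, edgeR) and for bleomycin cells 1.22 (adjusted p = 0.262, edgeR).

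The ITGA6 call depended on the tool and on the LM2 libraries. DESeq2 called it in all lung cells (adjusted p = 9.81e-05), in LM2 cells (0.000876) and in bleomycin cells (0.0365), where it called 8.06%, 4.48% and 4.08% of all genes with an adjusted p. With LM2 clone 1 or clone 3 left out, edgeR called it in all lung cells (adjusted p = 0.0273 and 0.0252) and in ITGB4-high cells (1.96e-05 and 0.00021), as did the fit without a count filter (5.5e-11 and 0.000171). Those fits called 2.5%, 6.55% and 6.47% of all genes for all lung cells and 42%, 41.6% and 8.14% for ITGB4-high cells. Over every fit run, the adjusted p for all lung cells ranged from 5.5e-11 to 0.688, while the log2 difference stayed between 1.08 and 1.49.

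Because a ratio taken within a library needs no scaling, the balance of the 2 chains was compared as reads per kilobase of annotated exon. ITGB4 gave 0.161 and 0.146 of the ITGA6 value in control clones 1 and 3. It gave 1.16 in ITGB4-high cells, 0.878 and 1.42 in LM2 clones 1 and 3, and 0.795 after bleomycin. In the controls ITGA6 thus exceeded ITGB4 several-fold, and in the other 4 libraries the chains were near parity. On the log2 scale of raw reads, the ratio was 0.04 ± 0.45 (SD, n = 3) in lung cells and -2.65 ± 0.10 (SD, n = 2) in controls, a difference of 2.7. The exact two-sided permutation test gave p = 0.1, which is the smallest p that 3 against 2 libraries allow. It took the libraries as independent, although clone 1 gave 2 of the lung libraries and both clones also gave a control. ITGB1, the other beta chain that can take ITGA6, was at 656 and 785 CPM in control clones 1 and 3, 587 CPM in ITGB4-high cells, and 508, 424 and 465 CPM in LM2 clones 1 and 3 and the bleomycin library (log2 difference -0.63 for all lung cells, adjusted p = 0.12, edgeR).

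CD151, which associates with laminin-binding integrins at the membrane, showed no such shift. It was at 124 and 127 CPM in control clones 1 and 3, 114 CPM in ITGB4-high cells, 158 and 108 CPM in LM2 clones 1 and 3, and 149 CPM after bleomycin. The control values fell inside the range of the lung values. The log2 difference for all lung cells was 0.14 (95% interval -0.31 to 0.59, adjusted p = 0.69, edgeR), and for ITGB4-high cells -0.14 (95% interval -0.81 to 0.54, adjusted p = 0.775, edgeR). For LM2 lung cells it was 0.08 (adjusted p = 0.848, edgeR), and between -0.21 and 0.34 over all fits run. Per kilobase of exon, CD151 therefore went from 1.32 and 1.30 times ITGA6 in control clones 1 and 3 to between 0.504 and 0.665 times ITGA6 in the other 4 libraries.

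**Figure D2:**
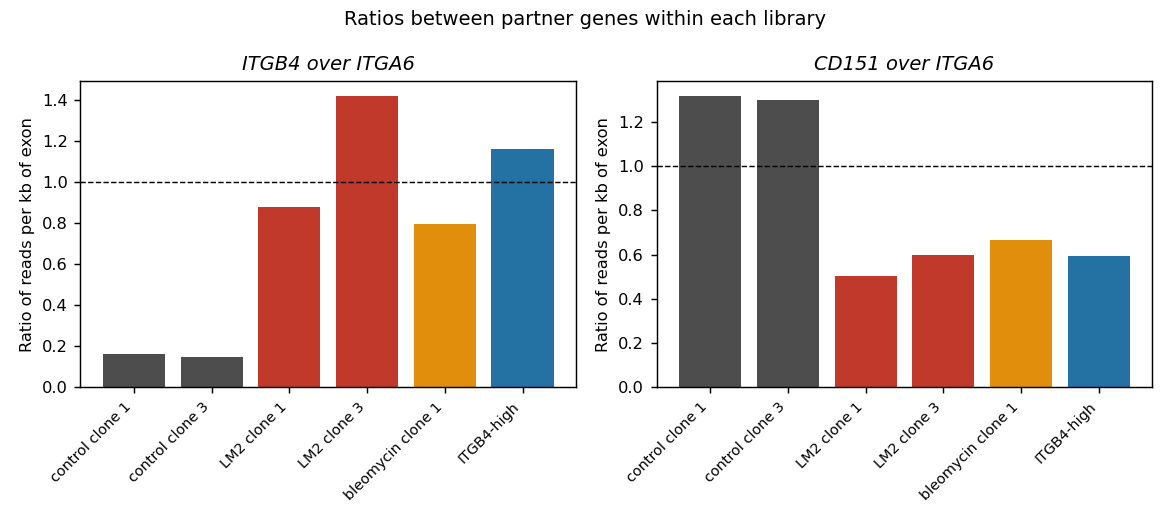
Ratio of reads per kilobase of annotated exon between partner genes in each library, ITGB4 over ITGA6 at left and CD151 over ITGA6 at right, with a dashed line at 1. The left bars are 0.161 and 0.146 in the controls and 0.795 to 1.42 elsewhere, and the right bars are 1.32 and 1.30 in the controls and 0.504 to 0.665 elsewhere.

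COL17A1, the transmembrane collagen, was at the floor in the controls, with 2 reads in each (0.139 and 0.0919 CPM in clones 1 and 3). It reached 827 reads in ITGB4-high cells (60.4 CPM), 128 reads in LM2 clone 1 (9.92 CPM), 37 in LM2 clone 3 (2.37 CPM) and 25 in the bleomycin library (1.60 CPM). All 4 were above both controls, and ITGB4-high cells stood above the lung cells. Relative to both controls together (4 reads), ITGB4-high cells were 551-fold higher per library total, with a 95% counting interval of 214 to 2030. Against its own clone's control, LM2 clone 1 was 65.7-fold higher (17.8 to 548), LM2 clone 3 26.9-fold (6.93 to 230) and bleomycin clone 1 11.3-fold (2.83 to 98.8). The intervals hold counting error alone, and reads that carry no molecular identifier may repeat the same molecule.

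In the fit over all libraries COL17A1 did not pass (log2 difference 8.99, SE 1.07, adjusted p = 0.0608 for ITGB4-high cells, and 5.26, SE 1.23, adjusted p = 0.117 for all lung cells, edgeR). It passed for ITGB4-high cells with the clone as a replicate block (adjusted p = 0.0269, or 0.0144 with the block centred), with DESeq2 (4.31e-14), without a count filter (7.82e-26), and without LM2 clone 1 (4.37e-09) or LM2 clone 3 (2.34e-06) in edgeR. The shares of all genes called in these fits were 0.695% and 2.32% with the block and its centred form, 10.4% with DESeq2, 8.14% without a filter, and 42% and 41.6% without an LM2 library. The range over all fits was 7.82e-26 to 0.42. For all lung cells it passed with DESeq2 (adjusted p = 2.18e-05) and without LM2 clone 1 (0.0166, edgeR), over a range of 2.18e-05 to 0.749. For LM2 cells alone the log2 difference was 5.68 (adjusted p = 0.183, or 0.0392 with the replicate block, edgeR), and for bleomycin cells 3.76 (adjusted p = 0.304, edgeR). COL17A1 also passed in some other fits of both comparisons. Over all fits run, the log2 difference lay between 4.33 and 6.40 for LM2 cells and between 2.90 and 4.03 for bleomycin cells.

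Among the 6 genes, COL17A1 was also that in which lung-recovered cells stood furthest from ITGB4-high cells. The ITGB4-high library exceeded LM2 clone 1 by 6.48-fold (95% counting interval 5.37 to 7.87), LM2 clone 3 by 25.1-fold (18.1 to 35.9) and the bleomycin library by 37.6-fold (25.3 to 58.4). The fitted log2 difference of lung from ITGB4-high cells was -3.72 (SE 0.82, 95% interval -5.73 to -1.71, adjusted p = 0.118, edgeR), with an adjusted p = 0.00336 in DESeq2 and 0.00987 without LM2 clone 1 in edgeR, over a range of 0.00336 to 0.399. In that comparison 0 of the 6 genes passed in edgeR, 1 (COL17A1) had an unadjusted p under 0.05, DESeq2 called 1 and limma-voom 0. Over all genes, edgeR called 0.108% (0.0766% lower in lung cells), 18.3% had an unadjusted p under 0.05, and DESeq2 called 8.02%. Per kilobase of exon, COL17A1 gave 0.15 of the ITGB4 value in ITGB4-high cells, 0.0202 in LM2 clone 1, 0.00512 in LM2 clone 3 and 0.00502 after bleomycin. In control clones 1 and 3 it gave 0.00512 and 0.00357, each resting on 2 COL17A1 reads.

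The cytoplasmic plaque genes differed from these. PLEC, which links beta-4 to keratin, was at 346 and 358 CPM in control clones 1 and 3, 427 CPM in ITGB4-high cells, 732 and 347 CPM in LM2 clones 1 and 3, and 380 CPM after bleomycin. A single library, LM2 clone 1, stood apart, and LM2 clone 3 lay between the controls. The log2 difference was 0.47 for all lung cells (95% interval -0.36 to 1.30, adjusted p = 0.463, edgeR) and 0.28 for ITGB4-high cells (adjusted p = 0.729, edgeR). For LM2 cells it was 0.62 (adjusted p = 0.433), or 1.07 (adjusted p = 0.000155) with LM2 clone 3 left out and -0.02 (adjusted p = 0.927) with LM2 clone 1 left out (edgeR), in fits that called 40.8% and 11.6% of all genes.

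DST had the smallest ratio of highest to lowest library among the 6 genes. It was at 759 and 738 CPM in control clones 1 and 3, 679 CPM in ITGB4-high cells, 777 and 736 CPM in LM2 clones 1 and 3, and 697 CPM after bleomycin. The log2 difference was -0.02 for all lung cells (95% interval -0.33 to 0.29, adjusted p = 0.933, edgeR) and -0.14 for ITGB4-high cells (95% interval -0.57 to 0.29, adjusted p = 0.626, edgeR). DST also encodes long forms of other tissues from other starts, and which form these reads come from was not tested.

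**Figure D3:**
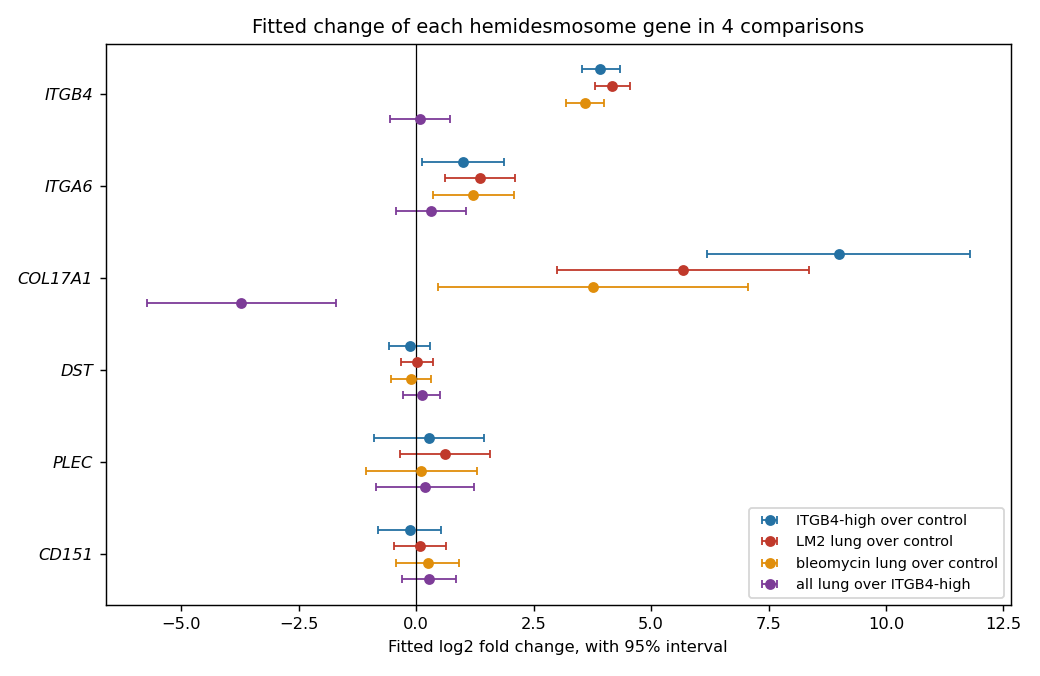
Fitted log2 fold change of each gene (points) with its 95% interval (bars) for ITGB4-high over control in blue, LM2 lung over control in red, bleomycin lung over control in orange and all lung over ITGB4-high in purple. ITGB4 lies between 3.60 and 4.17 over control, COL17A1 between 3.76 and 8.99 with wide intervals, and the intervals of DST, PLEC and CD151 include 0 throughout.

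As a set, 5 of the 6 genes had a positive log2 difference in all lung cells against control and the median was 0.89, beside 0.00 over all genes tested. For ITGB4-high cells 4 of 6 were positive with a median of 0.64, beside -0.01. These comparisons share the controls. Between bleomycin and LM2 lung cells the median was -0.32, and 0 of the 6 genes passed in edgeR. ITGB4 alone had an unadjusted p under 0.05 there, beside 4.61% of all genes, DESeq2 and limma-voom called 0 members, and the share called over all genes in edgeR was 0%. With LM2 clone 1 left out, ITGB4 (-0.53, adjusted p = 0.0189) and CD151 (0.46, 0.0383) passed, and with LM2 clone 3 left out ITGB4 (-0.63, 0.00927), ITGA6 (-0.49, 0.0198), COL17A1 (-2.63, 0.00152) and PLEC (-0.95, 0.00236) did (edgeR). Those fits called 7.42% and 19.2% of all genes.

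On a per-kilobase scale, which allows levels of different genes to be compared, the order in controls was CD151 (mean 31.9 CPM per kb), ITGA6 (24.4), PLEC (20.7), DST (17.7), ITGB4 (3.74) and COL17A1 (0.0163). In lung cells it was ITGA6 (60.8) and ITGB4 (60.1), then CD151 (35.1), PLEC (28.6), DST (17.4) and COL17A1 (0.655). Neighbours whose lung values overlapped were ITGA6 with ITGB4 and CD151 with PLEC. ITGA6 values stayed above CD151 in every lung library, PLEC above DST, and DST above COL17A1. The length used is all annotated exons together, 42.34 kb for DST and 16.99 kb for PLEC, which lowers the figure of a gene whose expressed form is shorter.

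Other genes tied to the complex were counted from lists chosen with earlier results of these data known. Outside the cell, LAMB3 encodes a chain of the laminin that the integrin binds, and COL7A1 the collagen of the anchoring fibrils. LAMB3 was at 7.41 and 5.10 CPM in control clones 1 and 3, 593 CPM in LM2 clone 1, 22.9 CPM in LM2 clone 3, 118 CPM with bleomycin and 111 CPM in ITGB4-high cells (adjusted p = 0.152 for all lung cells, edgeR). LM2 clone 1 was the highest by far, and no library overlapped the controls. COL7A1 was at 127 and 125 CPM in control clones 1 and 3, 149 to 175 CPM in lung cells and 239 CPM in ITGB4-high cells (adjusted p = 0.207 for all lung cells, edgeR).

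Among 5 other plakins, relatives of plectin and dystonin, 3 were tested. The desmosomal plakin DSP rose in lung cells. It was at 55.5 and 48.8 CPM in control clones 1 and 3 and reached 176 CPM in LM2 clone 1, 158 CPM in LM2 clone 3 and 144 CPM with bleomycin (log2 fold change 1.61, SE 0.15, adjusted p = 0.0231, edgeR). It did not pass with the clone as a replicate block (0.0509), without the bleomycin library (0.078) or without control clone 1 or 3 (0.28 and 0.413). Periplakin, PPL, was lower in lung cells than in ITGB4-high cells (log2 fold change -5.79, adjusted p = 0.0426, edgeR), where it had 144 reads (10.5 CPM) against at most 4 reads in each other library. That call was lost with the replicate block (adjusted p = 0.124, or 0.102 centred) and without the bleomycin library (0.116), control clone 1 (0.18) or control clone 3 (0.186). PPL reached the minimum count of 10 only in the ITGB4-high library, the group against which it was then tested. The filter and the test thus draw on the same library, so the call is not separate support. Like COL17A1, PPL was highest in the ITGB4-high library, but COL17A1 also had 25 to 128 reads in lung cells.

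Of 20 other tetraspanins, 15 were tested and TSPAN18 alone passed in edgeR, being lower in lung cells. It was at 41.1 and 36.1 CPM in control clones 1 and 3, 0.62, 2.30 and 0.641 CPM in LM2 clones 1 and 3 and the bleomycin library, and 1.10 CPM in ITGB4-high cells (log2 fold change -4.99, SE 0.53, adjusted p = 0.0363, edgeR). The call was lost without the bleomycin library (0.141), control clone 1 (0.28) or control clone 3 (0.337). For all lung cells 7 of the 15 had an unadjusted p under 0.05, DESeq2 called 4 and limma-voom 1. For ITGB4-high cells 0 of the 15 passed in edgeR, with 5 at an unadjusted p under 0.05, 3 called by DESeq2 and 0 by limma-voom. Over all genes the shares for ITGB4-high cells were 24.5% with an unadjusted p under 0.05 and 10.4% called by DESeq2, and for all lung cells 20.5% and 8.06%. Of 5 basal keratins, the filaments to which the plaque attaches, KRT17 passed in lung cells (adjusted p = 0.0491, edgeR), at 208 reads in LM2 clone 1, 291 in LM2 clone 3 and 82 after bleomycin against 0 and 2 reads in control clones 1 and 3. It did not pass in 8 of the 12 other fits, and its adjusted p ranged from 3.84e-38 to 0.508. The other laminin-binding chains (ITGA3, ITGA7 and ITGB1) gave 0 calls of 3 tested for all lung or ITGB4-high cells in edgeR and limma-voom, 2 with an unadjusted p under 0.05 and 1 called by DESeq2 in each (over all genes, 20.5% and 8.06% for all lung cells, 24.5% and 10.4% for ITGB4-high cells). ITGA3, which pairs with ITGB1 and also binds CD151, was highest in ITGB4-high cells, at 736 CPM against 206 and 227 CPM in control clones 1 and 3 (adjusted p = 0.0704, edgeR). Of 3 other transmembrane collagens only COL13A1 was tested, and it was at most 2.40 CPM in any library (log2 difference 1.86 for all lung cells, adjusted p = 0.218, edgeR).

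The genes whose log2 CPM followed ITGB4 most closely over the 6 libraries, among 7195 genes with a range of at least 1 on that scale, were STXBP2 (Pearson r 0.998), ABLIM1 (0.995), RASIP1 (0.993), PPP1R14C (0.991) and CELSR1 (0.990). STXBP2 had 4 reads and RASIP1 5 reads in each control, so their control values lie near the floor. ITGA6 ranked 105 in likeness to ITGB4 (r 0.923), COL17A1 436 (r 0.825) and PLEC 1881 (r 0.489). The genes most like ITGA6 were different: the tight junction gene CLDN1 (r 0.997), the cholesterol exporter ABCA1 (0.997), the adhesion molecule ICAM1 (0.996), FGD6 (0.995) and the kinase ABL2 (0.992). The contrast lies in the lung libraries. ITGA6 and CLDN1 were highest in LM2 clone 1 (518 and 390 CPM) and lowest among lung libraries in LM2 clone 3 (301 and 66.0 CPM), whereas ITGB4 was nearly equal in both LM2 clones. These correlations describe 6 libraries that fall into controls and the rest.

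**Figure D4:**
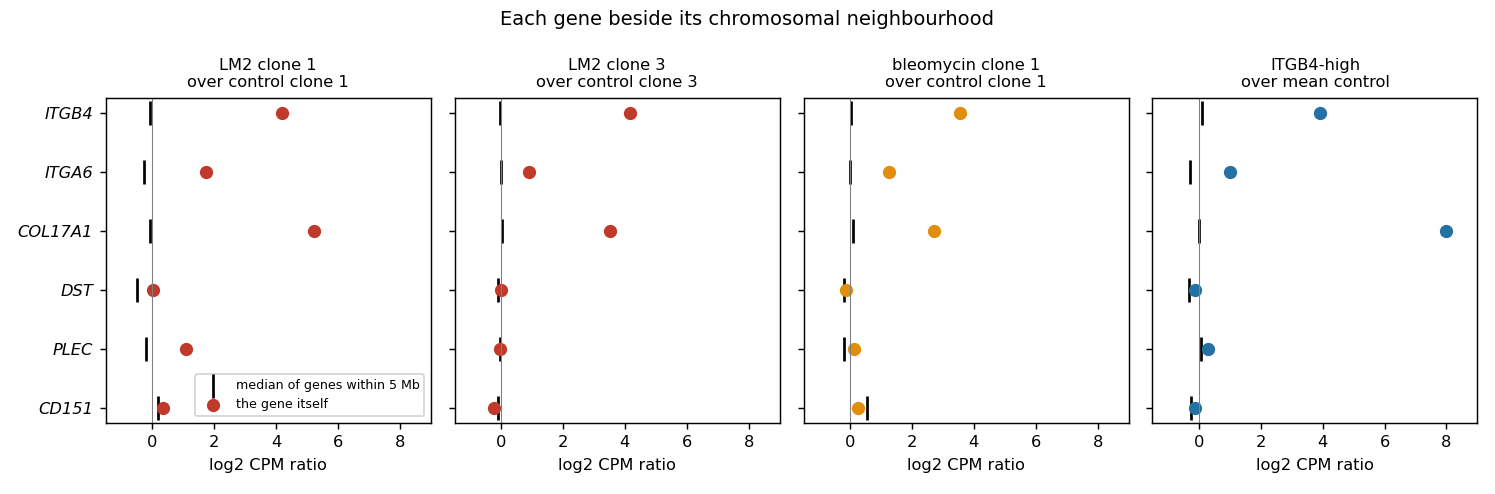
log2 CPM ratio of each gene (coloured points) beside the median of the tested genes that start within 5 Mb of it (black ticks), for LM2 clones 1 and 3 and bleomycin clone 1 over their own clone's control and for ITGB4-high cells over the mean of both controls. The ticks stay between -0.48 and 0.55, while ITGB4, ITGA6 and COL17A1 lie from 0.89 to 7.97.

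Genes around the 3 members that stood above the controls had medians far below the members' own ratios. Within 5 Mb of ITGB4 lay 105 tested genes, whose median log2 ratio was -0.06 for LM2 clone 1, -0.02 for LM2 clone 3, 0.04 for bleomycin and 0.09 for ITGB4-high cells, beside 4.18, 4.16, 3.55 and 3.92 for ITGB4 itself. Around ITGA6 the medians were -0.28, -0.01, -0.01 and -0.30 (59 genes), beside 1.73, 0.89, 1.25 and 1.00 for the gene. Around COL17A1 they were -0.08, 0.03, 0.11 and 0.02 (70 genes). Around CD151 the median of 76 genes was 0.55 in the bleomycin library, where CD151 itself was at 0.26.

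Genes that overlap the members on the other strand had fewer reads than the members. GALK1, on the minus strand across the 3′ end of ITGB4, had 73 to 182 reads in lung and ITGB4-high libraries, in which ITGB4 had 4769 to 6911, and 251 and 434 in control clones 1 and 3. POLR2L, which overlaps CD151, had 369 to 870 reads beside 1565 to 2766 of CD151. The 3 antisense genes across ITGA6 had at most 13 reads in any library. The strand setting of the counting is not given in the sources used here, so how overlapping reads were assigned was not tested.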

How the data were processed

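Per the labels' protocols, poly(A) RNA of 6 samples was sequenced after KAPA mRNA HyperPrep library preparation, which marks the strand. The submitters' processing notes name STAR 2.7.1a and hg38. The authors deposited raw whole-number counts of reads per Ensembl gene; the counter is not given in the sources used here. Symbols and coordinates came from GENCODE release 29, which matched 58216 of 58336 identifiers. Apart from an exact permutation test of the ITGB4 to ITGA6 ratio, the main tests were edgeR 4.0.16 quasi-likelihood tests in R 4.3.3 on all 15673 genes that passed a minimum count of 10, with TMM factors, robust estimation and Benjamini-Hochberg adjustment at 0.05. All 6 libraries entered each fit, as 4 groups, or as 3 classes (lung, control, ITGB4-high) where all lung cells are compared, so a group of 1 library took its spread from the larger groups. The p-values reflect only how far these 6 libraries vary, which may be technical. CPM use the TMM-scaled totals, and log2 ratios over the own clone's control use a prior count of 2.

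The 6 genes, the gene lists and the naming rule (all members, list genes that passed in a comparison or, where none did, up to 2 of highest mean CPM, the 5 genes most like ITGB4 and ITGA6, and neighbours) were chosen with earlier results of these data known. Alternatives were RLE factors, library totals alone, DESeq2 1.42.0, limma-voom (limma 3.58.1), no count filter, the clone as a replicate block, and each library left out. The tests were also run on simulated counts. These had the same dispersion for every gene and no difference between clones. They therefore do not cover the spread seen between the LM2 clones. Clone numbers pair libraries because their titles name 1 clone for both. Across 15673 genes, the difference between clones in control and in LM2 cells had a correlation of 0.0012. One listed gene, and the counts of its list, are not reported here.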

Additional observations from a re-analysis of the deposited data

Results flagged for a closer look

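For 3 of the 6 genes, the LM2 libraries moved in opposite directions from their own clone's control. PLEC was at a log2 ratio of 1.08 in clone 1 and -0.04 in clone 3. CD151 was at 0.35 in clone 1 and -0.23 in clone 3. DST was at 0.0346 in clone 1 and -0.004 in clone 3, both near 0. With 1 library per clone and condition, the difference between clones was not tested. The genes within 5 Mb had medians of -0.20 and -0.05 around PLEC, 0.18 and -0.09 around CD151 and -0.48 and -0.11 around DST in clones 1 and 3, and the part of these shifts in the ratios was not tested.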

How the results depend on the processing

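The 36 log2 differences of the members (6 genes in 6 comparisons) were refitted in 420 combinations of gene, comparison and setting, of which 353 kept their direction and side of the threshold, 44 passed newly, 8 were lost and 15 changed sign. All 8 losses were ITGB4 without control clone 1 or control clone 3. Where edgeR called 1 member over control and 0 otherwise, DESeq2 called 2 members for ITGB4-high cells, 3 each for LM2, bleomycin and all lung cells, and 1 for lung against ITGB4-high. Without a count filter 3, 4, 3 and 2 were called over control and 1 for bleomycin against LM2. The clone as a replicate block gave 2 for ITGB4-high cells, planned or centred, and 2 for LM2 lung cells, and changed no other count; the centred block was chosen after seeing the data, as was refitting DSP, PPL, TSPAN18 and KRT17. Leaving out 1 library each gave 0 to 3 members for ITGB4-high, 0 to 5 for LM2, 0 to 3 for bleomycin, 0 to 3 for all lung cells, 0 to 1 for lung against ITGB4-high and 0 to 4 for bleomycin against LM2. Over all genes, 14 calls for ITGB4-high cells became 1510 with DESeq2, 2 with limma-voom, 2707 without a filter, 109 with the block, 363 with it centred, 73 with library totals alone and 74 with RLE factors. In the same order, without the centred block, 5 calls for LM2 became 647, 2, 1748, 36, 17 and 14. For bleomycin, 4 became 577 with DESeq2, 1430 without a filter, 8 with the block and 9 with library totals alone. For all lung cells, 78 became 1263 with DESeq2, 2152 without a filter and 39 with the block. For lung against ITGB4-high, 17 became 1086, 1406 and 0, and between triggers 0 became 53 with DESeq2 and 236 without a filter. With 1 library left out, the highest counts were 6611, 6303, 4424, 1012, 1432 and 2969 in these 6 comparisons, each without an LM2 library, and the lowest 0. Apart from the replicates left out, signs changed for PLEC with the block (-0.01 for ITGB4-high, -0.17 for bleomycin) and for DST in LM2 cells with library totals alone (-0.02) and without a filter (0.00). With 1 library left out, signs changed for DST in LM2 cells (-0.02 to 0.07 over all fits) and all lung cells (-0.06 to 0.02), PLEC (-0.02 to 1.07) and CD151 (-0.21 to 0.34) in LM2 cells, ITGB4 (-0.04 to 0.25) and PLEC (-0.23 to 0.41) against ITGB4-high, and ITGA6 (-0.49 to 0.30), PLEC (-0.95 to 0.14) and CD151 (-0.09 to 0.46) between triggers. The log2 ratio of ITGB4 to ITGA6 reads differed by 2.44 to 2.86 with each library left out and by 2.69 with a prior of 5 counts. The cause of these changes was not tested. With 2 reads in each control, depth limits every ratio of COL17A1.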

Other observations

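Signalling partners of ITGB4, proteases that process the complex, and regulators of epithelial adhesion genes were measured too. Of 16 signalling partners 14 were tested, and 0 passed for all lung cells in edgeR or limma-voom (3 with an unadjusted p under 0.05, beside 20.5% of all genes, and 2 called by DESeq2, beside 8.06%), with a median log2 difference of 0.04. The receptor EGFR was at 741 and 627 CPM in control clones 1 and 3 and 443 to 993 CPM in the other 4 libraries (adjusted p = 0.896 for all lung cells, edgeR). The phosphatase PTPN11 was at 473 and 454 CPM in controls and 407 to 687 CPM elsewhere (adjusted p = 0.979, edgeR). Of 6 proteases 5 were tested and 0 passed in edgeR or limma-voom (2 with an unadjusted p under 0.05, beside 20.5% of all genes, and 2 called by DESeq2, beside 8.06%). ADAM9, a membrane protease able to shed COL17A1, was at 417 and 435 CPM in control clones 1 and 3 and at 202 to 318 CPM in the other 4 libraries (log2 -0.76 for all lung cells, adjusted p = 0.142, edgeR). ADAM10 was at 157 and 158 CPM in controls and 131 to 182 CPM elsewhere (adjusted p = 0.952, edgeR).

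Of 10 regulators 8 were tested and 0 passed for all lung cells in edgeR or limma-voom (4 with an unadjusted p under 0.05, beside 20.5% of all genes, and 2 called by DESeq2, beside 8.06%). ZEB1, a repressor of epithelial genes, was at 311 and 278 CPM in control clones 1 and 3, 124, 138 and 164 CPM in LM2 clones 1 and 3 and the bleomycin library, and 113 CPM in ITGB4-high cells. Its log2 difference was -1.05 for all lung cells (adjusted p = 0.0588, edgeR) and -1.39 for ITGB4-high cells (adjusted p = 0.0608, edgeR). Its relative ZEB2 was at 64.0 and 71.0 CPM in controls, 81.8 to 111 CPM in lung cells and 42.6 CPM in ITGB4-high cells (log2 0.52 for all lung cells, adjusted p = 0.17, edgeR). Both genes beside COL17A1 were above the controls in the other 4 libraries, though neither passed. SFR1 was at 16.8 and 13.1 CPM in controls and 29.3 to 56.7 CPM elsewhere (adjusted p = 0.0751 for all lung cells, edgeR), and SLK at 267 and 249 CPM in controls and 333 to 453 CPM elsewhere (adjusted p = 0.151, edgeR).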
